A study of Mus musculus with 2 samples.

Results

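Ephrins are the membrane-bound ligands of the Eph receptor tyrosine kinases, and the 4 ephrin ligand genes described here, Efna5, Efnb1, Efnb2 and Efnb3, were taken by symbol from 263 named genes on a mouse neurogenesis array. Efna5 is an A ephrin and the other 3 are B ephrins. A further A ephrin on the array, Efna1, is not one of these 4 genes and is given with the Eph receptors.

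The array compared the subventricular zone, the neurogenic layer beside the lateral ventricle, of adult mice at postnatal day 60. In one group lysolecithin, a detergent-like lipid that strips myelin from axons, had been injected into the corpus callosum, the white matter above the zone, and in the control group NaCl had been injected there. Tissue was taken 4 days later. Each group has 1 sample on 1 membrane, so no difference has a replicate check, no p-value is given, and "higher" and "lower" describe 2 films. Genotype, strain, sex and the number of animals behind a sample are not given in the labels, although the workbook tags both of its arrays WT. The workbook that names the genes states an array type and a day other than those in the labels, and its project name speaks of NSCs where the labels speak of tissue. Whether it holds the labelled RNA of the subventricular zone is therefore not settled for any gene below. In dissected tissue, fewer cells of a type and less RNA per cell cannot be told apart.

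A ephrins are held in the membrane by a lipid anchor, whereas B ephrins span it and carry a cytoplasmic tail that docks PDZ and SH2 domain proteins. Binding between touching cells signals into the receptor-bearing cell and back into the ephrin-bearing cell, which usually ends in repulsion or in a change of adhesion. In the adult rodent subventricular zone, ephrins and Eph receptors are known for their roles in progenitor proliferation and in the chain migration of neuroblasts.

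What was measured is the average density of each spot on a scanned film and the density of the film just around it, the local background. Density minus local background is called the excess below. Densities of different genes come from different probes, so they are not compared as RNA levels. Of 263 genes, 145 lay above their local background after NaCl, 55.1%, and 140 after lysolecithin, 53.2%. The median gene density was 10753 and 11579.6 in that order. Progenitor markers were in part detected, since Nes and Stmn1 were called present on both arrays and Dcx on the lysolecithin array only, while Pax6 was absent on both. No listed microglial, blood or endothelial marker was on the array (0 of 8), so RNA of those cells could not be checked.

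The 4 ephrins gave each of the 4 possible patterns of the authors' calls. Efna5 was called present on both arrays, as were 18.6% of all 263 genes. Efnb1 was absent after NaCl and present after lysolecithin, a pattern shared by 2.28% of genes. Efnb3 was present after NaCl and absent after lysolecithin, as were 3.42%. Efnb2 was absent on both arrays, as were 75.7%. Above local background on both arrays were Efna5, Efnb1 and Efnb3, against 43.7% of all genes, whereas Efnb2 lay below it on both, against 35.4%. A density of at least 1.5 times local background was reached by Efna5 and Efnb3 after NaCl, as by 14.1% of all genes, and by 0 of the 4 ephrins after lysolecithin, against 9.13% of all genes.

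**Figure D1:**
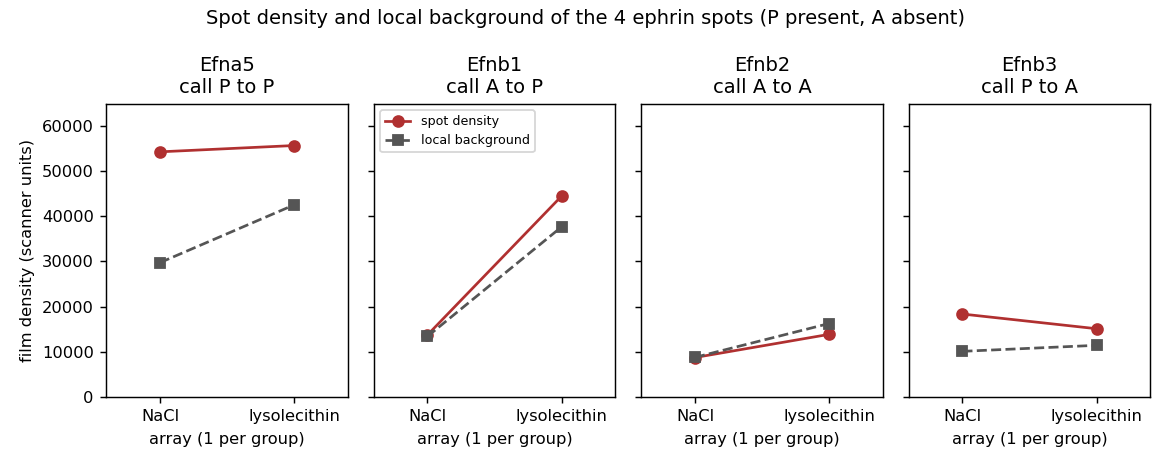
Spot density (circles, solid line) and local background (squares, dashed line) in scanner units for each ephrin after NaCl and after lysolecithin, 1 array per group. The background climbed with the spot for Efnb1 and Efnb2, it climbed under a nearly level spot for Efna5, and only for Efnb3 was the spot itself lower after lysolecithin.

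Where the spots sit on the membrane matters for 3 of the 4 genes. Efna5, Efnb1 and Efnb2 lie side by side in row 5, at columns 10, 11 and 12, at the right edge of a membrane of 12 columns and 24 rows. Efnb3 opens row 6 at the left edge, so it is not their neighbour. On the lysolecithin array the film of the upper right corner was darker. Local background was higher there by at least 10000 units at 10 of 288 spots, and all 10 fell among the 15 spots of rows 1 to 5 and columns 10 to 12, a block outlined after the values were seen. Its median difference in local background, lysolecithin minus NaCl, was 12799 units, against 798.2 units for the 273 spots outside it. Chrd is the single spot of the block whose local background was not higher.

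**Figure D2:**
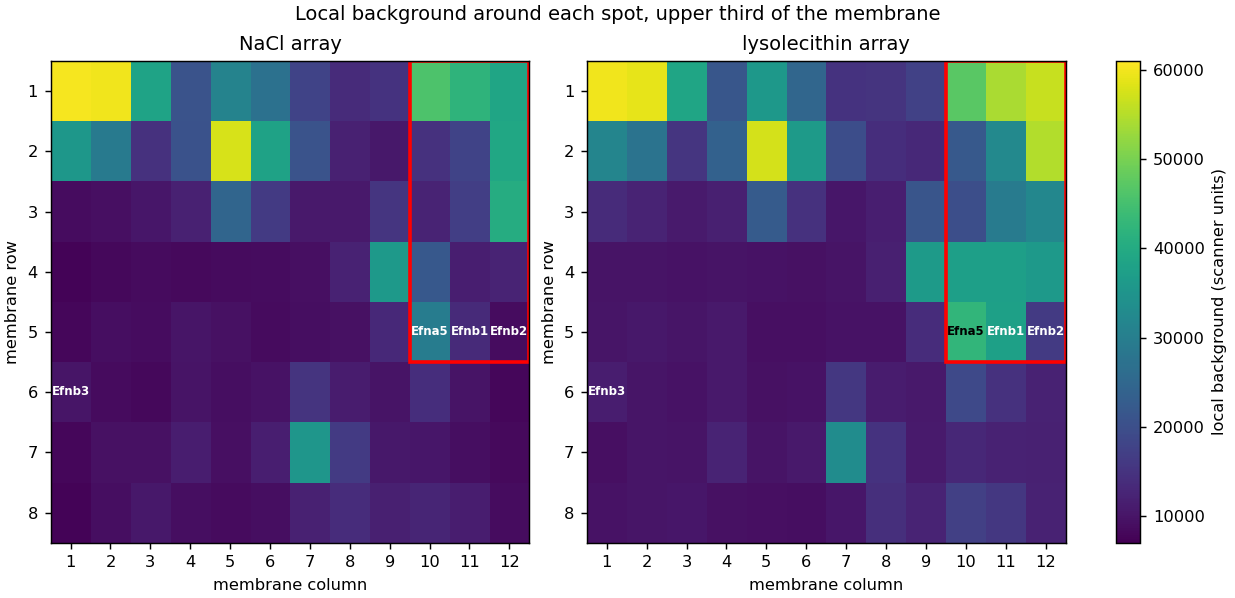
Local background of each spot in rows 1 to 8 of the membrane on the NaCl and the lysolecithin array, on 1 colour scale in scanner units (yellow is the darkest film), with the ephrin spots named and the darker corner outlined in red. Efna5, Efnb1 and Efnb2 lie inside the outline and Efnb3 lies at the opposite edge.

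Efna5, which guides topographic mapping of retinal axons by repulsion, was a strong spot on both arrays and its density hardly differed. The spot measured 54317 after NaCl and 55714 after lysolecithin. After subtraction of each array's lowest density and scaling to the control genes Gapdh and Ppia, the log2 ratio of lysolecithin over NaCl was 0.08, well inside 1.5-fold (log2 ratios of repeated control spots had an SD of 0.27 over 9 spots, most of them near saturation). By the same measure, of the 49 genes with a present call on each array, 12.2% passed 1.5-fold upwards and 6.12% passed it downwards. These densities were 90.0% and 92.3% of 60348, the highest density of any spot apart from Chrd, which measured 88903 after lysolecithin. If 60348 is near the film's ceiling, little room was left for a higher value, which was not tested.

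The film around Efna5 differed more than the spot. Its local background was 29747 after NaCl and 42547 after lysolecithin. The excess was therefore 24569 after NaCl and 13167 after lysolecithin, 0.536 times as much. Its difference in excess was -11402 units, and 3 of 263 genes, Efna5 among them, had a difference at least as low. Other bright spots of the same corner also had a lower excess. The 3 Ppia spots and Bdnf, which with Efna5 and Chrd had a mean excess of at least 10000 there, had differences from -13949 to -2426, with a median of -11523. Outside the corner, 13 of 21 genes with such a mean excess had a lower excess after lysolecithin, with a median difference of -1673, and 1 of them, Fgf2 at -15498, was as low as Efna5. Efna5 was also marked as bleeding, a spill of signal beyond the spot, on the lysolecithin array and not on the NaCl array, as were 22 and 15 of all 288 spots. The part of the darker film, of saturation and of bleeding in the lower excess of Efna5 was not tested.

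Efnb1, a transmembrane ligand for EphB receptors that is needed for craniofacial and skeletal patterning, had the greatest difference in density of the 4 spots. The spot measured 13706 after NaCl and 44493 after lysolecithin. Its local background went with it, at 13390 and 37671, so the spot was 3.25 times and the surrounding film 2.81 times as dark after lysolecithin. In local background only Dcx, the spot directly above it, differed by more units among the 263 genes. Around Efnb1 the local backgrounds after lysolecithin were uneven, from 12157 at Erbb3 to 42547 at Efna5, with 16243 at Efnb2. Efnb1 was not marked as bleeding on either array. Whether signal of Efnb1 or of its neighbours adds to the local background was not tested.

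What was left over local background at Efnb1 was 315.6 units after NaCl and 6822 units after lysolecithin. The difference of 6506 units equals 2.77 times the SD of this difference among 251 other genes away from the film's ceiling, 2345 units. A difference of at least 1 SD towards lysolecithin was seen in 6.46% of genes, and 3 genes other than Efnb1, namely Chrd, Igf1 and Acsl6, had a difference as high as its own. Its excess differed more towards lysolecithin than that of any of its 8 adjacent spots. Among those, Dcx, which binds microtubules in migrating neuroblasts, came closest with 6280.5 units, from an excess of -1028 to 5252. The others ranged from -11402 at Efna5 to 456.3 at Epm2a, a phosphatase of glycogen metabolism, and 5 of the 8 were negative. Dlg4 and Dcamkl1, further neighbours in the dark film, had densities of 41129 and 38337 after lysolecithin against 17929 and 23460 after NaCl, yet their differences in excess were -338.3 and -680.4.

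The size of the Efnb1 difference is not fixed by these films. The NaCl excess of 315.6 units is far inside the SD of 2345, so no fold of signal can be read from it, and a ratio of densities includes the darker film. Among markers of progenitors and of the oligodendrocyte lineage the differences in excess had both signs. Beside Dcx, the difference in excess was 2590.0 units for Nes, a progenitor filament protein, and -1652.6 for Stmn1, a microtubule regulator of neuroblasts. It was 2403 units for Olig1, an oligodendrocyte lineage factor, and 234.0 for Olig2, which was absent on both arrays. Dcx, Nes and Olig1 were past the SD of 2345, each towards lysolecithin, while Stmn1 and Olig2 were inside it. That SD also covers genes without signal, so it is a narrow yardstick for strong spots such as Nes, Olig1 and Stmn1. These were among the 21 genes outside the corner with a mean excess of at least 10000, whose differences ran from -15498 to 4587. The part of the darker film and of these cells in the Efnb1 difference was not tested.

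Efnb2, the ligand that marks arterial endothelium and pairs with EphB4 on veins, had no signal over its surroundings on either array. The spot density was 8706 after NaCl and 13843 after lysolecithin. The local background was 8743 and 16243. The spot was thus darker after lysolecithin, but it was paler than the film around it on both arrays, with an excess of -37.6 after NaCl and -2400.3 after lysolecithin. All 5 adjacent spots had a higher density and a higher local background after lysolecithin, and their median local background was 11568 and 35947. A fold of signal cannot be given for Efnb2, and any ratio of its densities compares film without signal. The ratio of 4.02 that the authors' deposited table lists for it compares 2 spots called absent.

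Efnb3, a midline and myelin-associated ligand that repels growing axons, was the only ephrin whose spot was paler after lysolecithin. The spot measured 18351 after NaCl and 15093 after lysolecithin. The local background was similar, at 10082 and 11414, so the excess was 8269 after NaCl and 3679 after lysolecithin, 0.445 times as much. The difference of -4589.6 units equals -1.96 times the SD of 2345 (a difference of at least 1 SD towards NaCl was seen in 11.4% of genes). The darker corner does not reach this spot, but the left edge was not free of darker film. The median log2 ratio of local background, lysolecithin over NaCl, was 0.249 in column 1, which holds Efnb3. That was the highest median of any column, ahead of 0.244 in column 10. At Efnb3 itself the log2 ratio of local background was 0.18. Effects of position on Efnb3 were not tested. In the column of Efnb3, the Gapdh control spot of row 2 was also present after NaCl and absent after lysolecithin. Its difference in excess was -7143.5, and its log2 ratio was -0.63, as for Efnb3. Bmi1, below that Gapdh spot in row 3, had a difference of 476.7. The 5 spots adjacent to Efnb3, namely Dll1, Dll3, Egr2, Erbb4 and Es2el, were all called absent. Their differences in excess ran from -2472 to 132.3, and none was as low in units as Efnb3. All had a smaller NaCl excess than Efnb3, so they had fewer units to lose. The excess of Dll3 was 2925 after NaCl and 1178 after lysolecithin, and that of Es2el was 3779 and 1307. Dll1, Egr2 and Erbb4 had NaCl excesses of 233.9, -412.6 and 47.3.

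A lower excess after lysolecithin was common among spots of this strength. Of 24 other genes outside the corner with a mean excess of 3000 to 9000 units, 18 had a lower excess after lysolecithin, with a median difference of -1670.5, and 3 were at least as low as Efnb3. Over all 263 genes the excess was lower in 57.4%, with a median difference of -139.04. The value of Efnb3 is therefore on the low side of spots like it and inside their range, which ran from -10876 to 7051.

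The absent call of Efnb3 after lysolecithin did not mean a spot level with its surroundings. Its excess of 3679 was the highest of all 208 genes called absent on that array, ahead of S100b at 3019.7, and 10 of the 55 genes called present there had a smaller one. The calls went with the density as well as with the local background. No gene below its local background was called present on either array, and the dimmest present gene had a density of 14958 (S100b) after NaCl but 16389.6 (Slit1) after lysolecithin, leaving out genes whose deposited signals do not follow from their densities (among them the dimmer present spots of Igf1 and Vegfa after NaCl and of Bmp4 after lysolecithin). At 15093 Efnb3 lay 1297 units under the latter and above the former. S100b itself, at 14958 and 15017, had the same pair of calls on nearly equal densities.

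**Figure D3:**
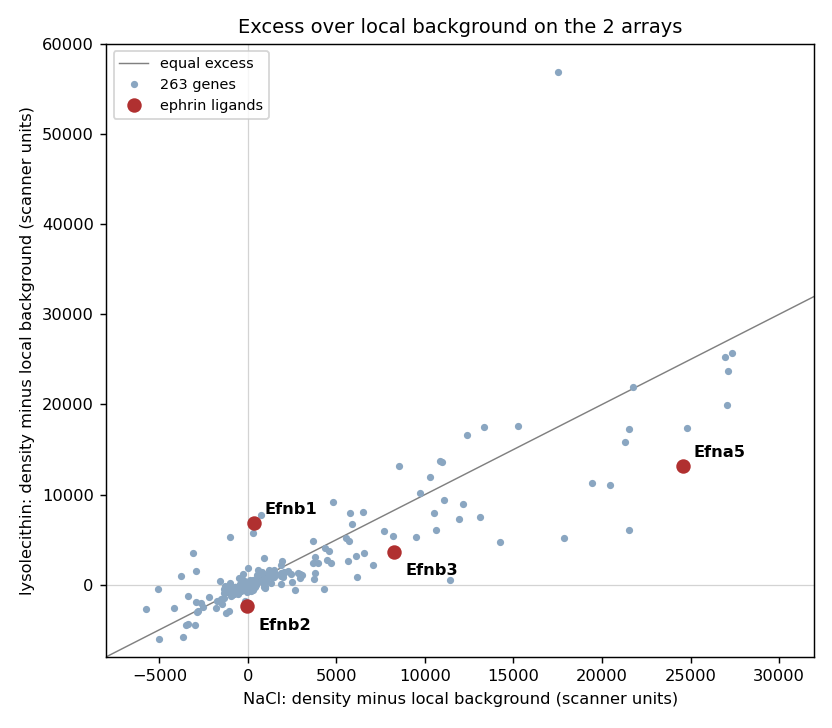
Density minus local background after NaCl (horizontal axis) and after lysolecithin (vertical axis), in scanner units, for 263 genes, with the ephrins in red and a line of equal excess. Efnb1 lies above the line, Efna5, Efnb3 and Efnb2 lie below it, and the single point near the top is Chrd.

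Set side by side, the A ephrin and the B ephrins did not separate into 2 patterns. Efna5 had a difference in excess of -11402, and among the B ephrins the differences were 6506 for Efnb1, -2363 for Efnb2 and -4589.6 for Efnb3. The B ephrins thus pointed both ways, and Efnb2 and Efnb3 shared their sign with Efna5. The sign of Efnb2 rests on spots without signal. With adjacent spots outside the dark corner as background, the difference was 672.8 for Efnb2 and -63.3 for Efna5. With 1 A ephrin, 3 B ephrins and 1 array per group, no test between the classes was possible. On density alone the order was another one: Efnb1 and Efnb2 were higher, Efna5 nearly level and Efnb3 lower after lysolecithin. Efnb1 and Efnb2, the B ephrins that were higher by density, both lie in the darker corner, and Efnb3, which was lower, does not. Efna5, which was nearly level, lies in that corner too. The part of position in these differences was not tested.

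**Figure D4:**
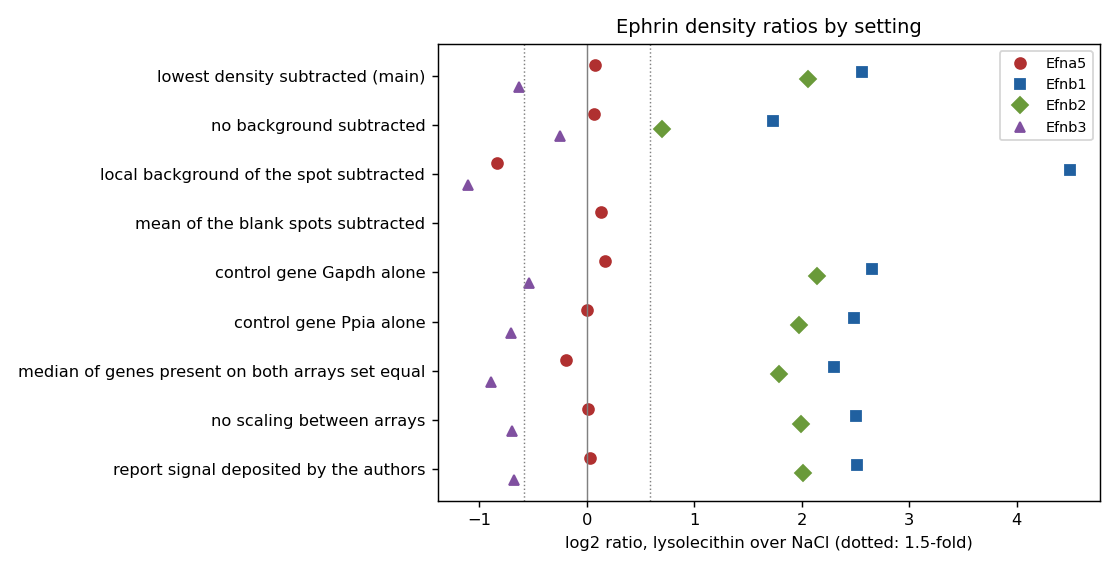
Log2 ratio of lysolecithin over NaCl for each ephrin (horizontal axis, dotted lines at 1.5-fold) under each background and scaling (vertical axis), with no point where a value was at or below 0 after subtraction. Points of Efnb1 and Efnb2 without local background subtracted are ratios of film darkness and give no fold of signal. Their NaCl spots were called absent, with an excess of 315.6 and -37.6 units. With it subtracted, Efnb1 has a ratio of excesses that rests on an NaCl excess of 315.6 units and gives no size. Efna5 left the 1.5-fold range only with local background subtracted, at -0.84, and Efnb3 was negative in each setting that gave a value, within 1.5-fold at -0.25 without subtraction and at -0.54 with Gapdh alone.

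Of 13 listed Eph receptors 4 were on the array, none of them was detected, and the other 9, EphB4 among them, were not measured here. The 4 receptors, Epha4, which binds both ephrin classes, and the B class receptors Ephb1, Ephb2 and Ephb3, were called absent on both arrays and lay below their local background on both. The density of Epha4 was 9427 after NaCl and 9074 after lysolecithin, with local backgrounds of 9624 and 9600.5. For Ephb1 the densities were 13309 and 13916, under local backgrounds of 15031 and 15687. Differences in excess among the 4 receptors ran from -329.4 to 518.8. The SD of 2345 is no yardstick for them, because it also covers strong spots and these had no signal. Efna1, the other A ephrin, was absent and below local background too, with an excess of -2176 and -1407, although it lies directly beside Efna5. A spot below its local background shows that no signal was measured there and not that the RNA was lacking.

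Other genes of axon guidance and of ephrin signalling were taken from lists. Of 29 further guidance genes, 20 were on the array and 3 were present on both arrays, namely Nrp2, a semaphorin receptor, Slit1, a repellent that steers neuroblasts, and Ntn1, a netrin. None of the 20 was present on only 1 array. The median difference in excess was -243.5 over the 20 genes, against -139.04 over all 263. For Nrp2 the excess was 5699.9 after NaCl and 4903 after lysolecithin, and for Slit1 it was 4354 and 4056, so neither differed by the SD of 2345. Ntn1 had a higher excess, 12374 and 16595, at a lower density, 58428 and 49607, and its deposited signal does not follow from its density, so no direction is given for it. Of 26 genes whose products work with ephrins inside the cell, 7 were on the array and 2 were present on both. These were Pard3, a polarity protein, with an excess of 10622 after NaCl and 6094 after lysolecithin, and Dlg4, a PDZ scaffold of synapses that shares the dark corner with the ephrins. The median difference over these 7 genes was -236.9.

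The genes nearest to each ephrin in log2 density over the 2 arrays were taken by distance, the 3 closest for each. For Efna5 they were Dbn1, Bdnf and Ntf5, all present on both arrays. For Efnb1 they were Dcx, Dlg4 and Bcr, all 3 inside the darker corner. For Efnb2 they were Bmi1, Fyn and Pou4f1, all absent on both arrays. For Efnb3 they were Cables1 and Pitx3, which had its pattern of calls, and Nrp2, which was present on both. Likeness over 2 arrays rests on 1 density each and is a description of the films.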

How the data were processed

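The subventricular zone was dissected from sections of 300 µm, and biotin-labelled cRNA made from 1 µg of RNA was put on membranes, per the labels. The software was GEArray Expression Analysis Suite 2.0, per the series' design text. Per the file headers, the workbook lists a spot intensity, which is the average density, beside a background intensity for the film around the spot. The deposited report signal has the array minimum removed, per the file headers, and serves here as an alternative. The deposited ratio is lysolecithin over NaCl, and the present and absent calls used a threshold of 1.5, per the file headers. Arrays were assigned by the NaCl and lysolecithin parts of their names. Of 288 spots, 263 are genes; the 4 ephrin accessions matched their symbols in the RefSeq gene table of GRCm38.p6. A further table, of unnamed spots, was not used.

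From the densities, the excess over local background and its difference between arrays were computed. Log2 ratios used density minus the array's lowest density (7301 and 8256), scaled to the mean of Gapdh and Ppia, most of whose spots were near the ceiling. Adjacent spots are the up to 8 around a spot. Named genes are the ephrins, their adjacent spots, listed genes, the 3 nearest genes per ephrin in log2 density, and genes a count turns on, which were picked after their values were seen. The ephrins and the lists were chosen with earlier results of these data known, and a listed marker is not reported here. The arithmetic was tested on simulated data. Python 3.11.15, NumPy 2.4.6, pandas 2.3.3 and matplotlib 3.10.9 were used. The number of arrays limits the precision. Alternatives were other backgrounds, scalings and thresholds.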

Additional observations from a re-analysis of the deposited data

How the results depend on the processing

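No paired analysis was possible because NaCl and lysolecithin have a single array each. Log2 ratios were taken to move when they differed by over 0.27, the SD of repeated control spots, most of them near saturation, and differences in excess when they differed by over 2345 units. For Efnb1 and Efnb2, whose NaCl spots were absent with an excess of 315.6 and -37.6, log2 ratios without local background subtracted compare film darkness. They give no fold of signal, although Efnb1 had an excess of 6822 after lysolecithin. Without background subtraction the log2 ratio was 1.73 for Efnb1, 0.70 for Efnb2 and -0.25 for Efnb3, against 2.56, 2.06 and -0.63 in the main setting. With local background subtracted the log2 ratio was -0.84 for Efna5 (0.08 in the main setting) and -1.10 for Efnb3, and Efnb2 had no value. With the blank spots subtracted only Efna5 had a value. The 4.50 rests on an NaCl excess of 315.6 units, inside the SD of 2345, and gives no size for Efnb1. The median log2 ratio of all genes was -0.03, and 0.13 without subtraction, -0.33 with local background subtracted and -0.30 with the median of present genes set equal. Taking the adjacent spots' median density as background gave differences of -20004 for Efna5, 11288 for Efnb1 and -25452 for Efnb2, and their median local background gave 15321 for Efnb1 and -19242 for Efnb2. With only adjacent spots outside the dark corner, an alternative chosen after seeing the data, the differences were -63.3 for Efna5, 25981 for Efnb1 and 672.8 for Efnb2, the last with its sign turned, since these spots have paler film. Efnb3 kept its value within 2345 units under each of its 3 alternatives. At a density of 1.5 times local background, 2 ephrins passed after NaCl (Efna5 and Efnb3) and 0 after lysolecithin, against 14.1% and 9.13% of all genes. Genes past the fold threshold among those present on both arrays, 6 higher and 3 lower, were 3 and 1 at 2-fold, 51 and 46 over all genes, and 6 and 14 with local background subtracted.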

Other observations

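Call changes gave a wider view of Efnb1 and Efnb3. All 6 genes that were absent after NaCl and present after lysolecithin (Acsl6, Dcx, Efnb1, Wwp1, Fezf2 and Zic2) had a higher local background after lysolecithin, by 329.96 to 25897 units, and a higher excess, by 2056 to 6612 units. Efnb1 was the 1 of these whose NaCl spot lay above its local background. The other 9 genes, present after NaCl and absent after lysolecithin, had a lower excess, by differences of -5331 to -777.97, and 3 of them (Apaf1, Apbb1 and Cables1) lay below local background after lysolecithin. Efnb3 had the greatest excess of these 9 on each array. No gene below its local background was called present. The direction was therefore fixed in advance for the genes below local background on the array where they were absent, 5 of the 6 and 3 of the 9. Efnb1 and Efnb3 are not among these. The calls went with the same densities, however, so their direction is not independent of their calls either. The direction shared with the other genes is no support for these ephrins.

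The deposited ratio column lists values for spots without signal, as it does for Efnb2. Of the 199 genes absent on both arrays, 40 have a ratio of at least 1.5 in the authors' deposited table and 47 are as far in the other direction. A ratio of at least 4.02 is listed for 8 genes, Efnb2 among them. Of the 93 genes of this kind below local background on both arrays, the table lists 21 past 1.5-fold upwards and 18 downwards.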
